A study of Mus musculus with 9 samples.

Results

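The genes described here are 9 mouse genes that guide T cells into, within and out of the thymus, chosen by name: S1pr1, Klf2, Ccr7, Ccr9, Cxcr4, Ccr4, Cd44, Itga4 and Itgb7. All 9 were found among 21887 protein-coding genes of the RefSeq annotation of GRCm38.p6. The chromatin came from the thymus of C57BL/6J mice, from cells labelled as a T cell lymphoma driven by MYCN. It was profiled by ChIPmentation, in which a transposase inserts sequencing adapters into chromatin still bound to the antibody. There were 7 immunoprecipitations, 1 library each, against EZH2 and SUZ12 (subunits of Polycomb repressive complex 2), H3K27me3 (the mark that complex deposits), N-MYC, the acetyltransferase p300, H3K27ac (a mark of active promoters and enhancers) and H3K4me3 (a mark of active promoters). The samples also held 2 inputs, and the labels give no normal thymus, no age, and no statement of how many mice gave each library. The title of the series asks about EZH2 as an activator, so each gene was read for whether EZH2 lay with SUZ12 and H3K27me3 or with N-MYC, p300 and the active marks.

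A thymocyte is kept in place and moved by chemokine receptors, which sense gradients laid down by stromal cells, and by adhesion receptors, which hold it to matrix and vessel wall. Mature thymocytes leave when S1pr1, the receptor for sphingosine 1-phosphate, draws them into the blood, and the transcription factor KLF2 is known as an activator of S1pr1. Cxcr4 and Ccr9 are receptors of immature thymocytes, Ccr4 and Ccr7 serve the entry of positively selected cells into the medulla, and Ccr7 also guides naive T cells to lymph nodes. Cd44 binds hyaluronan, and the chains encoded by Itga4 and Itgb7 pair into an integrin for gut homing.

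Each library is given by the authors' peak list. A peak's fold enrichment is the authors' ratio over background, and it is used here only to describe and rank peaks within a list. The lists ran from 9798 peaks for N-MYC to 123056 for H3K27me3, the number of reads behind them is unknown, and a missing peak means only that none was called. Each antibody had 1 library, so differences could not be tested against replicates and p-values are left out. The labelled cell type was checked over whole genes widened by 1 kb at each end. H3K4me3, H3K27ac and p300 peaks each met all 12 T cell marker genes, against 54.8%, 59.1% and 43.3% of all genes. p300 met 1 of 6 B cell, 0 of 6 myeloid and 1 of 7 stromal marker genes, and H3K4me3 met 3, 3 and 4 of them. H3K27ac set the lineages least apart, with 4 of 6 B cell, 3 of 6 myeloid and 4 of 7 stromal marker genes, near its share of all genes.

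Promoter sequence was matched for 7 of the 9 genes, all but S1pr1 and Ccr7. The 250 bases before the start are shown for 4 of them, which are the 3 genes with EZH2 at the start and a gene with no peak: Klf2 with all the Polycomb features, Cxcr4 and Itga4 with EZH2 and N-MYC, and Ccr9 for comparison. The sequences are from RefSeq, GRCm38.p6, written from 5′ to 3′ on the gene's strand, with CG dinucleotides in capitals.
Klf2, chr8:72318812-72319061 (+ strand): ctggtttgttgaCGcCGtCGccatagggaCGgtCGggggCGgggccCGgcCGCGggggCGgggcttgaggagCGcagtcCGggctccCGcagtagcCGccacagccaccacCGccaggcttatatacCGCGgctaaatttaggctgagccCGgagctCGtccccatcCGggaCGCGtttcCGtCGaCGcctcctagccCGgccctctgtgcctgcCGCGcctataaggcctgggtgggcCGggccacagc
Cxcr4, chr1:128592300-128592549 (- strand): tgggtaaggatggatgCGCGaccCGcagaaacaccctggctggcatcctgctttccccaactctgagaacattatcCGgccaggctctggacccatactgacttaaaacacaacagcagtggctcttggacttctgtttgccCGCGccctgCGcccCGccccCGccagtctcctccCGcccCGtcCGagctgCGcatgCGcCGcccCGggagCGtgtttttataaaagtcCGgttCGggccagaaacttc
Itga4, chr2:79255176-79255425 (+ strand): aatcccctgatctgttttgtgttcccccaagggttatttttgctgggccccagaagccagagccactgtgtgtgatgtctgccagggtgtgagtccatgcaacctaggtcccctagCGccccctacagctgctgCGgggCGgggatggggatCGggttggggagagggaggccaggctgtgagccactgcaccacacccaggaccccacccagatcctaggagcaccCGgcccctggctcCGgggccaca
Ccr9, chr9:123766961-123767210 (+ strand): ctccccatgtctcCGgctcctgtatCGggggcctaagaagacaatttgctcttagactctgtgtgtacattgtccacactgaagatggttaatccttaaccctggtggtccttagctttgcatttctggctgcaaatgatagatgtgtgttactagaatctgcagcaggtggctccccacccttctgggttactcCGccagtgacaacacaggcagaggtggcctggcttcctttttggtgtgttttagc

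The Klf2 stretch held 29 CG dinucleotides, more than 91.8% of 21263 promoters of protein-coding genes, whose median was 10. Cxcr4 had 19, Itga4 had 6 and Ccr9 had 3. The other matched promoters had 5 (Cd44 and Itgb7) and 3 (Ccr4). None of the 7 stretches held CACGTG, the E-box bound by MYC proteins, or its variant CACGCG, on either strand. These letters occurred in 6.63% and 9.99% of all promoters of the same length, so their absence from 7 stretches does not set these genes apart. The N-MYC summits lie outside the stretches, 879 bp into Cxcr4, 162 bp into Itga4 and at -310 bp from the promoter-table start of Ccr4. The sequence under these summits was not read.

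Peaks were first counted within 1 kb of the gene start, taking a gene as called when at least 1 bp of a peak fell in that window. EZH2 was called at 3 of the 9 genes (Klf2, Cxcr4 and Itga4), against 43.1% of the 17494 genes with a known strand. SUZ12 and H3K27me3 were called at 1 gene, Klf2, against 12.2% and 23.8%. N-MYC was called at 2 genes, Cxcr4 and Itga4, against 31.6%. p300 was called at 4 (Klf2, Cxcr4, Itga4 and Cd44), against 38.3%. H3K27ac was called at 6 (S1pr1, Ccr7, Cxcr4, Cd44, Itga4 and Itgb7) against 49.9%, and H3K4me3 at 6 (the same without Itgb7 and with Klf2) against 49.6%. With 9 genes these counts do not set the list apart from the genome. The genes differed from each other: 2 carried EZH2 with N-MYC and no Polycomb feature (24% of all genes), 1 carried EZH2 with SUZ12 and H3K27me3 (11.2%), and 2 carried no peak of any list (29.9%). A start with SUZ12 and H3K27me3 but no H3K4me3, found at 7.76% of all genes, was seen at 0 of the 9.

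**Figure D1:**
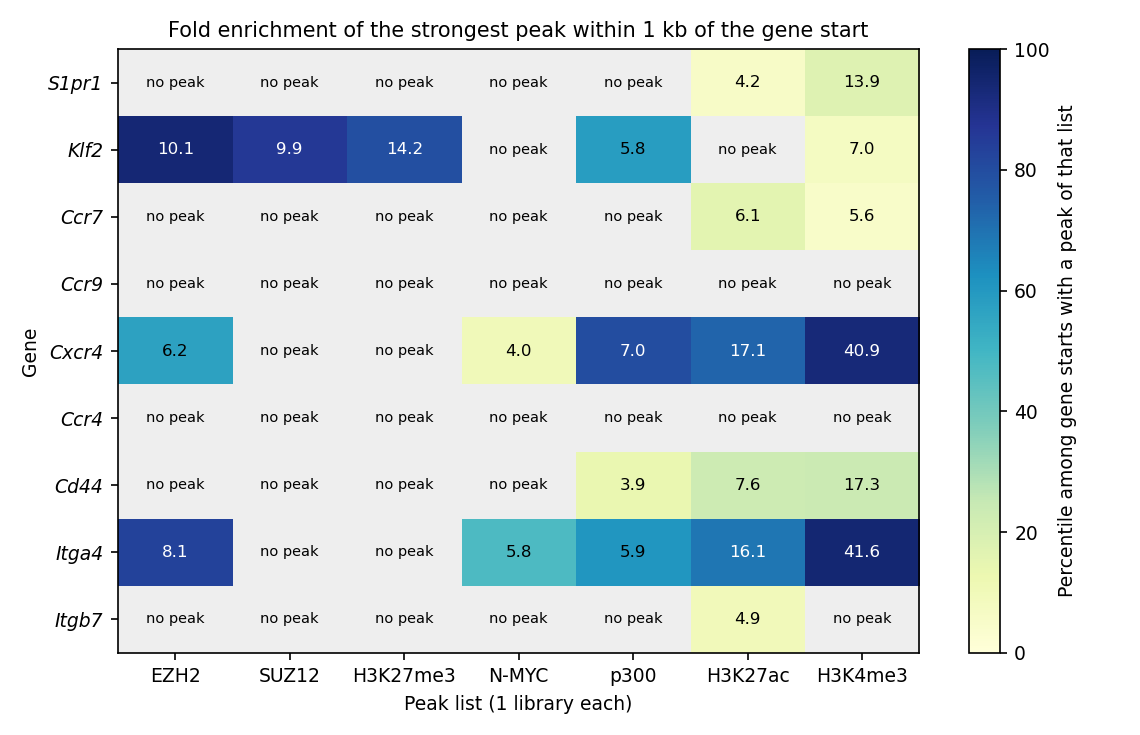
Heat map of the 9 genes (rows) and 7 peak lists (columns, 1 library each). Numbers are the authors' fold enrichment of the strongest peak within 1 kb of the gene start, and colour is its percentile among all gene starts with a peak of that list. Klf2 is the only row with SUZ12 and H3K27me3, Cxcr4 and Itga4 hold the same 5 lists, and the Ccr9 and Ccr4 rows are empty.

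Over the gene body H3K4me3 was called at 8 genes (54% of all genes), H3K27ac at 7 (57.9%), p300 at 6 (42%) and N-MYC at 4 (35.3%). EZH2 was called at 3 (47.1%), and SUZ12 (14.9%) and H3K27me3 (30.2%) at 1 each. The genes gained relative to the start were Ccr7 and Ccr4 for N-MYC, Ccr4 and Itgb7 for p300, Ccr4 for H3K27ac, and Ccr4 and Itgb7 for H3K4me3. No EZH2, SUZ12 or H3K27me3 peak was gained in a body. The genes run from 2.6 kb (Klf2) to 90.5 kb (Cd44), and long genes have more room for a peak.

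Among the egress genes, S1pr1 (chromosome 3, 115710433 to 115715055) had H3K4me3 of fold enrichment 13.9 at its start and H3K27ac of 4.17, and none of the other 5 lists there or in its body. Both values were low for called starts, at percentiles 17.2 and 5.85. The H3K4me3 peak was 2165 bp wide with its summit 304 bp inside the gene, and the acetylation was broken into 3 short peaks in the window. H3K4me3 and H3K27ac with no other list was the pattern of 637 genes (3.64%). The nearest N-MYC summit lay 100.8 kb from the start, and the nearest EZH2 summit 72.2 kb away. The gene table gives no strand for S1pr1 or Ccr7, so their minus strand was taken from general knowledge. At the other end of S1pr1 no list had a peak.

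Klf2 (chromosome 8, 72319062 to 72321654) was the one gene of the list under Polycomb features. EZH2 reached a fold enrichment of 10.1, SUZ12 9.88 and H3K27me3 14.2, at percentiles 93.8, 86.3 and 79.2 of called starts. The EZH2, SUZ12 and H3K4me3 peaks each covered 100% of the 2593 bp gene body, and H3K27me3 covered 99.7%. Klf2 is the shortest gene of the list, so full cover does not need a broad peak. In the same order, the peak widths ranked at percentiles 94.0, 71.3, 62.9 and 56.5 of called starts. H3K4me3 was called too but weakly, at 7.02 (percentile 7.30). Its summit lay 340 bp into the gene, beside the EZH2 summit at 347 bp, whereas the SUZ12 and H3K27me3 summits lay at 1239 and 1293 bp. H3K4me3 and H3K27me3 were called together at 6.77% of all starts. In a bulk library, both marks on the same chromatin and each mark in different cells cannot be told apart.

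Klf2 also had a p300 peak, of fold enrichment 5.77 (percentile 58.3) and 681 bp width, whose summit lay 8 bp from the start. No H3K27ac peak was called there, and the nearest lay 13.8 kb upstream. p300 without H3K27ac at the start was seen at 69 genes (0.394%). EZH2, SUZ12, H3K27me3 and p300 together were called at 165 genes (0.943%). The exact set of 5 lists at Klf2 was shared by 7 genes in all (0.04%). The others, named after their values were seen, were Arhgap20, Efnb2, Gas8, Id2, Mapre3 and Mok. Of these 7 genes Klf2 had the highest EZH2 value, ahead of Arhgap20 at 7.51, and the lowest H3K4me3 value, just below Arhgap20 at 7.34. N-MYC was not called at Klf2, and its nearest summit lay 79.1 kb away.

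**Figure D2:**
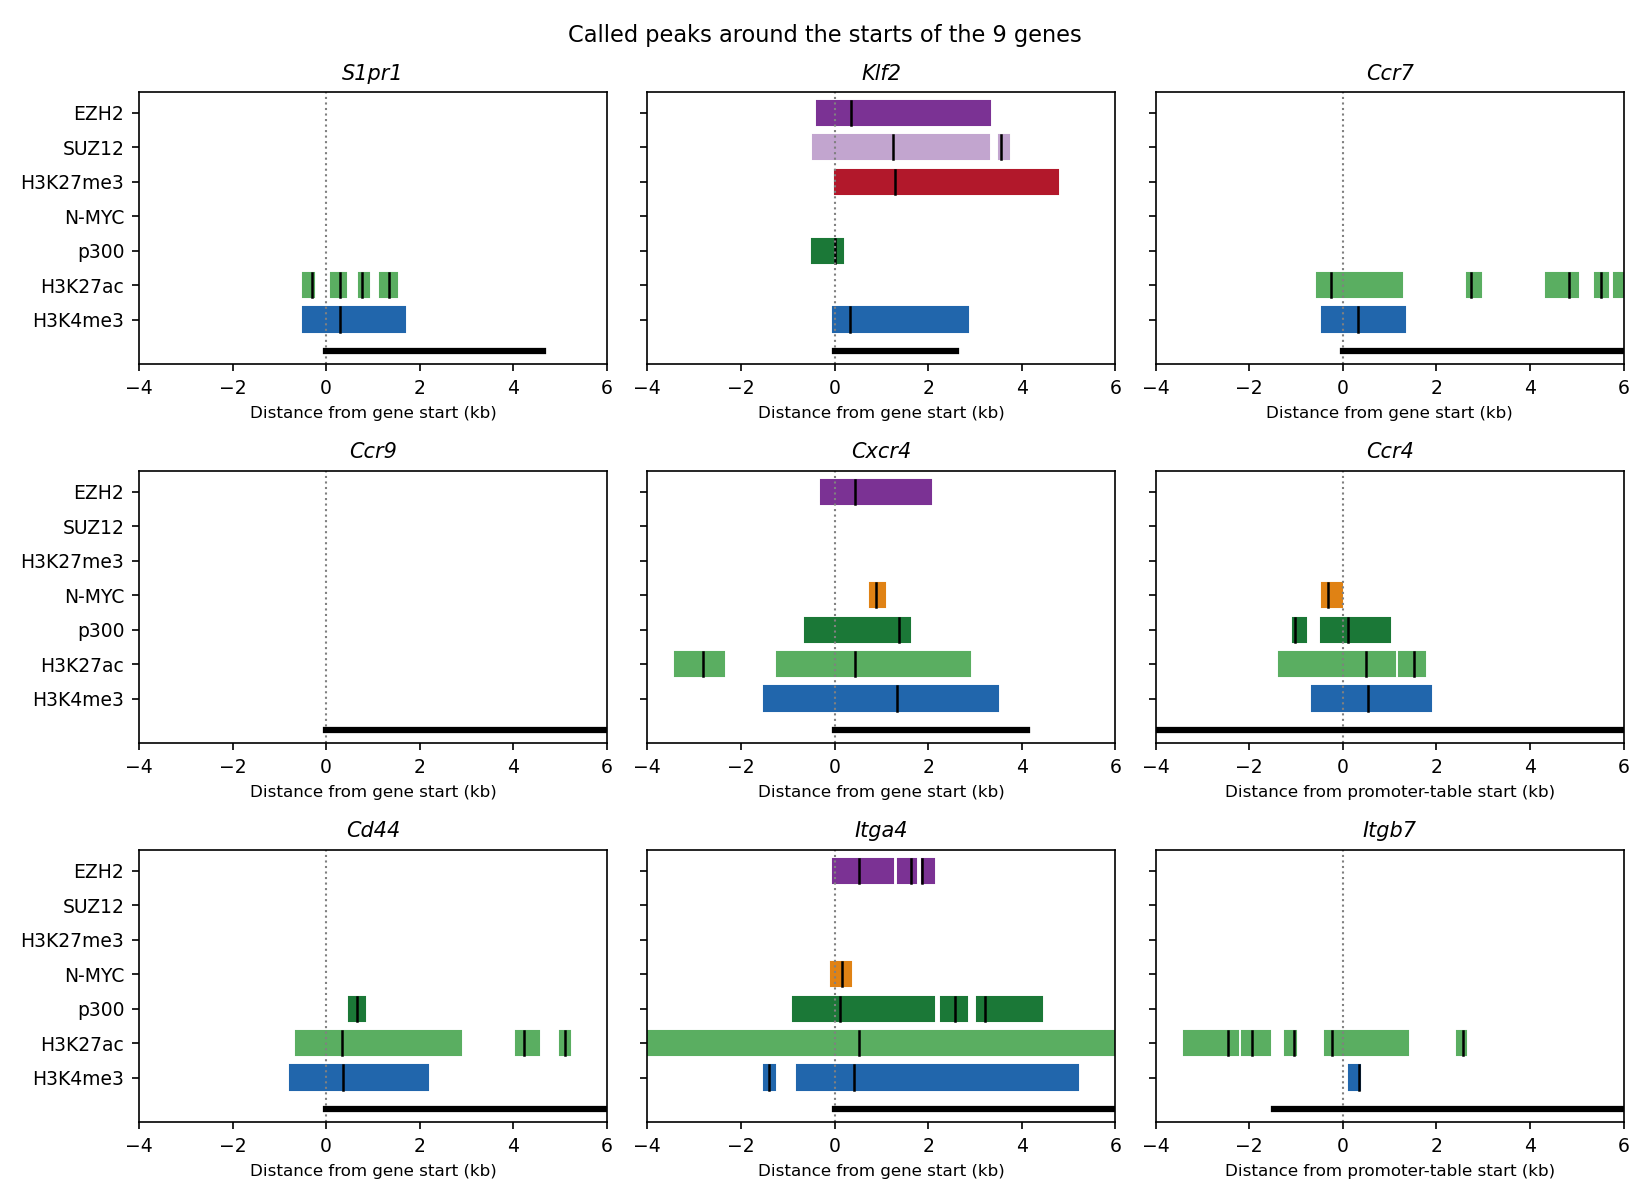
Called peaks of the 7 lists (rows, coloured bars) from 4 kb before to 6 kb after the start of each gene (x axis, kb along the direction of transcription). Black ticks are summits and the black bar under the rows is the gene. Ccr4 and Itgb7 are drawn around the start in the promoter table. The 4 Polycomb and H3K4me3 bars of Klf2 overlie its whole body, and the Ccr9 panel is empty.

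Of the chemokine receptors, Cxcr4 (chromosome 1, 128588199 to 128592299) carried the fullest active set. H3K4me3 reached 40.9 (percentile 93.2) over 5003 bp, wider than 96.2% of the H3K4me3 peaks at called starts. H3K27ac reached 17.1 (percentile 73.3) over 4122 bp, and covered 70.3% of the gene body. The p300 peak had a fold enrichment of 7.01 and EZH2 of 6.15, at percentiles 80.0 and 56.9. N-MYC was called at 4.01, low for this list (percentile 10.1). The EZH2 summit, 448 bp into the gene, lay beside the H3K27ac summit at 442 bp, while N-MYC peaked at 879 bp, and H3K4me3 and p300 at 1341 and 1378 bp. The nearest H3K27me3 summit was 269.4 kb away and the nearest SUZ12 summit 915.5 kb away.

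Ccr4 (chromosome 9, 114490316 to 114505476) had no peak at the start of its gene record. Its promoter-table start lies 8932 bp further into the record, at 114496544, and there 4 lists were called. H3K4me3 reached 28.6 (percentile 56.9) over 2539 bp and H3K27ac 12.3 (percentile 50.0) over 2485 bp. p300 reached 6.08 (percentile 64.5), and N-MYC 4.77 (percentile 25.9), with its summit at -310 bp relative to that start. EZH2, SUZ12 and H3K27me3 were not called anywhere in the gene. Ccr4 thus joined Cxcr4 and Itga4 as genes with N-MYC at a start when this start was used, and differed from them by the missing EZH2 call.

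Ccr7 (chromosome 11, 99144199 to 99155077) had H3K27ac of 6.14 and H3K4me3 of 5.59 at its start, at percentiles 15.7 and 5.03, and the same pair of lists as S1pr1. Acetylation was not confined to the start, and the start peak is among the body peaks counted next. H3K27ac peaks, 8 in number and from 2.99 to 8.26 in fold enrichment, covered 65.2% of the gene, above 93.7% of genes with such a peak in the body (median 9.88%). The highest, 4685 bp wide, lay over the far end, where an N-MYC peak of 4.39 overlapped the last 54 bp of the gene and a p300 peak of 4.03 followed just outside. Upstream, a peak of H3K27ac with a fold enrichment of 14.9 stood 8.2 kb before the start together with p300 at 5.27 and N-MYC at 5.49. Which gene that site serves was not tested.

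Ccr9 (chromosome 9, 123767211 to 123783457) had no peak of any list at its start or over its 16.2 kb body. The nearest H3K27ac summit lay 6.0 kb upstream (4.85), and N-MYC (4.16) and p300 (4.03) peaks lay 12.4 and 12.6 kb upstream. The nearest H3K4me3 summit was 49.7 kb away. The nearest H3K27me3 summit was 84.2 kb away, farther than the median of 29.5 kb over 17494 gene starts. The nearest SUZ12 summit was 88.4 kb away, nearer than the median of 148 kb over 17276 gene starts. Both medians include starts with a peak of that list, so they are not matched references for Ccr9. Neither active nor Polycomb peaks thus met the gene.

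Of the adhesion genes, Itga4 (chromosome 2, 79255426 to 79333114) carried the same 5 lists as Cxcr4, a set found at 4097 genes (23.4%). H3K4me3 reached 41.6 (percentile 94.4) over 6005 bp, and H3K27ac 16.1 (percentile 68.8) over 10238 bp, a width above 99.2% of called starts. EZH2 reached 8.05 (percentile 82.8), with the summit 530 bp into the gene, close to those of H3K27ac at 518 bp and H3K4me3 at 418 bp. N-MYC at 5.84 (percentile 47.4) and p300 at 5.89 (percentile 60.8) peaked nearer the start, at 162 and 117 bp. A further 2 EZH2 peaks, of 5.61 and 3.10, had their summits 1631 and 1866 bp into the gene, under the same H3K4me3 peak. The remaining peaks over the 77.7 kb body, 3 of H3K27ac and 2 of p300, all had their summits in its first 15 kb.

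Cd44 (chromosome 2, 102811141 to 102901669) had H3K4me3 of 17.3, H3K27ac of 7.61 and p300 of 3.90 at its start, at percentiles 23.6, 22.9 and 13.3. Neither N-MYC nor EZH2 was called in the gene, and their nearest summits lay 171.8 and 171.9 kb away. Its body held 15 H3K27ac peaks, a number reached by 871 of 21887 genes, and 5 p300 peaks. Both counts include the start peak. At 90.5 kb Cd44 is the longest gene of the list, with more room for peaks. H3K27ac covered 16.1% of it, above 63.5% of genes with such a peak in the body (median 9.88%). The strongest H3K27ac peak was not at the start but 34.7 kb inside the gene, at 17.0 over 3048 bp, and it held 2 p300 peaks of 4.03 and 3.66. A second group of H3K27ac peaks, of 6.26 to 8.78, lay 50.1 to 52.8 kb inside, with p300 at 3.53.

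Itgb7 (chromosome 15, 102215994 to 102233405), whose product pairs with that of Itga4, was marked far less. At the start of the gene record it had H3K27ac alone, of 4.88 (percentile 9.47). At the promoter-table start, 1470 bp further in, H3K27ac was 4.15 and H3K4me3 was 2.92, 244 bp wide and at percentile 0.0807. A stronger H3K4me3 peak of 6.02 lay 8.2 kb inside the gene with H3K27ac of 5.51 and p300 of 3.22. No EZH2, SUZ12, H3K27me3 or N-MYC peak lay in the gene. Their nearest summits were 12.0 to 13.5 kb upstream.

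**Figure D3:**
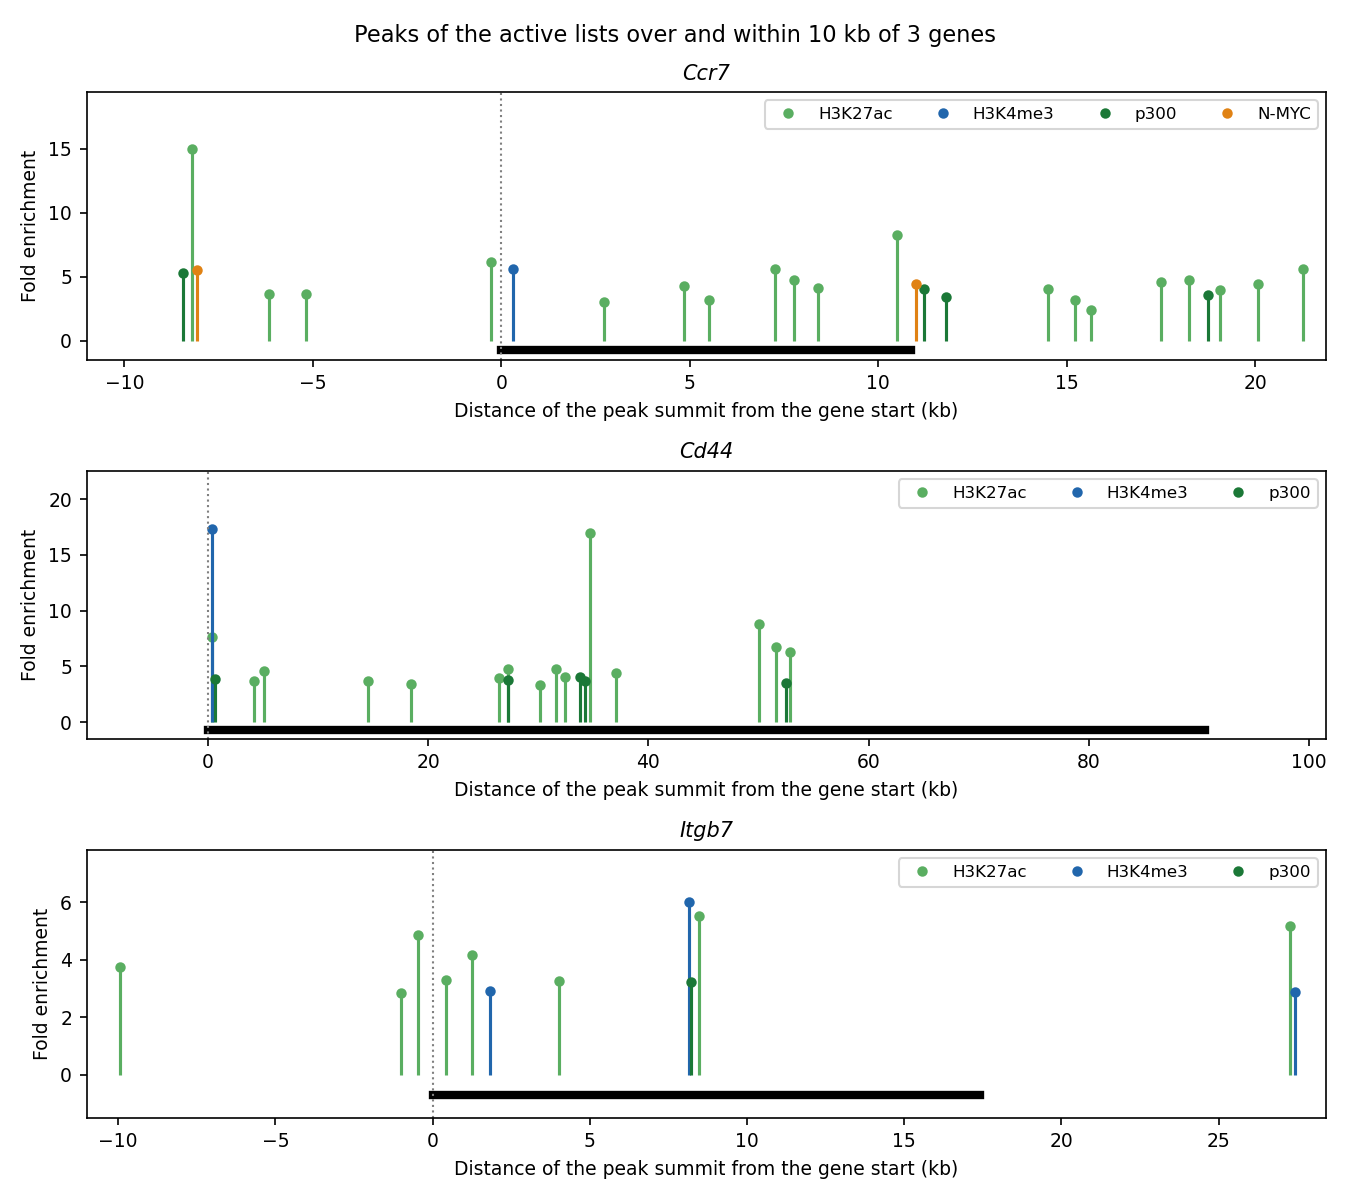
Fold enrichment (y axis) against the distance of the summit from the gene start (x axis, kb) for H3K27ac, H3K4me3, p300 and N-MYC peaks over and within 10 kb of Ccr7, Cd44 and Itgb7. Each stem is 1 peak and the black bar is the gene. The highest H3K27ac stem of Ccr7 (14.9) stands upstream of the gene and that of Cd44 (17.0) inside it.

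At the starts without Polycomb features, H3K4me3 was stronger at the genes with EZH2 than at those without. Starts with H3K4me3 and H3K27ac and with neither SUZ12 nor H3K27me3 are called active starts here, and 5 of the 9 genes had one (S1pr1, Ccr7, Cxcr4, Cd44 and Itga4), against 41.9% of all genes. EZH2 was called at Cxcr4 and Itga4, with H3K4me3 of 40.9 and 41.6, and 97.2% of the 707 active starts with H3K4me3 of 40 or more had EZH2. It was not called at S1pr1 and Cd44, with H3K4me3 of 13.9 and 17.3, and 30.7% of the 1194 active starts between 10 and 20 had it. At Ccr7, with 5.59, EZH2 was missing as at most of the 340 active starts below 10, where 2.35% had it. Ccr4, with 28.6 at its promoter-table start, lacked EZH2 in a range (20 to 30) in which 71.7% of 2584 active starts had it. Those active starts were read at gene-record starts, where Ccr4 had no peak, so the windows differ. Klf2, whose start is not active by this rule, went the other way, with the highest EZH2 value of the 9 genes (10.1) and H3K4me3 of 7.02, below S1pr1 and Cd44. The share of active starts with N-MYC changed less over the same ranges, from 26.8% below 10 to 85.9% at 40 or more.

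**Figure D4:**
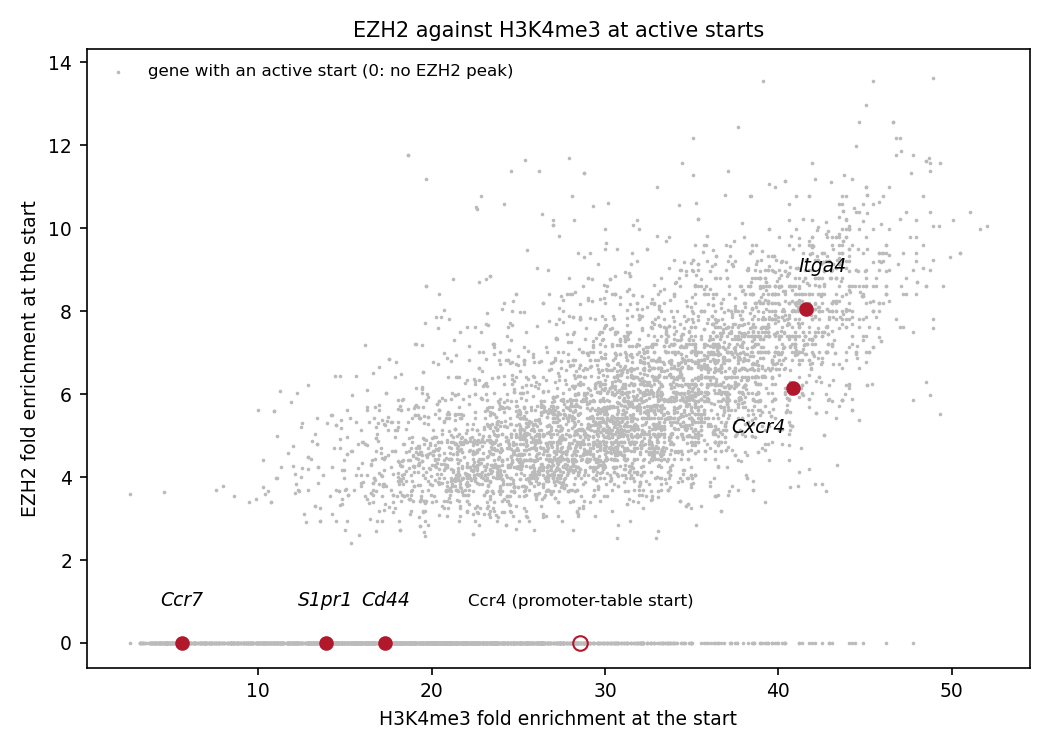
EZH2 fold enrichment (y axis, 0 where no peak was called) against H3K4me3 fold enrichment (x axis) at 7334 active gene starts (grey), with the 5 active genes of the list in red and Ccr4 at its promoter-table start as an open circle. Cxcr4 and Itga4 lie among starts with EZH2 and H3K4me3 above 40, and the other 4 lie on the line without EZH2.

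Other genes of the same processes were read from lists chosen for their roles, within 1 kb of the start of the gene record unless another region is named. Of 14 genes of the sphingosine 1-phosphate axis and of egress with a known strand, 9 had an active start and 13 had EZH2, against 41.9% and 43.1% of all genes. EZH2 lay with SUZ12 and H3K27me3 at 5 of them (S1pr3, S1pr5, Sphk1, Spns2 and Plpp3) and without either at the other 8. The highest EZH2 values at the start were at Sphk1, a kinase that makes sphingosine 1-phosphate (11.8), and Sphk2, its paralog (7.87). The highest N-MYC values were at Sphk2 (12.3) and Gna13 (10.6). Neighbouring starts were looked up only for the members and their closest matches. Whether the peaks at Sphk2 and Gna13 belong to another gene was therefore not tested. Over the gene widened by 1 kb at each end, S1pr5 had EZH2 of 11.9, slightly above Sphk1. Like Klf2, Sphk1 had SUZ12 (8.97), H3K27me3 (12.9) and weak H3K4me3 (7.21). S1pr2 and S1pr4, sister receptors of S1pr1, had active starts with H3K4me3 of 25.6 and 28.4, and S1pr4 had EZH2 (5.50) and N-MYC (3.94) as well.

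Few of the other chemokine receptors had a peak at the start of the gene record. Of 14 with a known strand, 0 had EZH2, N-MYC, p300 or SUZ12 there, against 43.1%, 31.6%, 38.3% and 12.2% of all genes. H3K4me3 was called at 1 (Cxcr3, 11.1) and H3K27ac at 2, against 49.6% and 49.9%. H3K27me3 was called at 3 (Ccr6, Cxcr2 and Ackr3), near its share of 23.8%. Over genes widened by 1 kb more was called. H3K27ac met 7 of 17 of these receptors, H3K4me3 3 and p300 2, against 59.1%, 54.8% and 43.3%. EZH2 met 2, N-MYC 2, SUZ12 1 and H3K27me3 4 of the 17. Over gene bodies without the added 1 kb, these lists met 47.1%, 35.3%, 14.9% and 30.2% of all genes. Ccr10, with no known strand, had EZH2 of 7.75, N-MYC of 6.44, SUZ12 of 6.94 and H3K27me3 of 15.5 over the widened gene. Xcr1, with no peak at its record start, had EZH2 of 4.97, N-MYC of 7.89, p300 of 10.1, H3K27ac of 9.55 and H3K4me3 of 28.6 over that span. Its promoter-table starts were not read as those of Ccr4 were. Homing ligands are known to be expressed by stromal, vascular or myeloid cells. Among 9 of their genes, EZH2 was called at the start of 2, Ccl25 (7.15) and Cxcl12 (7.07), against 43.1% of all genes. Over genes widened by 1 kb, EZH2 met 5 of 12 ligand genes, against 47.1% of all gene bodies without the added 1 kb. Cxcl12, the ligand of Cxcr4, also had SUZ12 and H3K27me3, and Ccl25, the ligand of Ccr9, had the active set with N-MYC of 5.14. The start of Elavl1 lies within 2 kb of that of Ccl25, so these peaks cannot be assigned to one of them. Of 9 other adhesion genes, 4 had an active start and 6 had EZH2, against 41.9% and 43.1% of all genes. At the start EZH2 was highest at Itga5 (12.7, with SUZ12 and H3K27me3) and Itgb1 (7.33, with neither), and N-MYC was highest at Itgb1 (7.12) and Tln1 (4.97). Itgav had no EZH2 at the start but 8.48 over the gene widened by 1 kb.

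The gene most like a member was sought only for members with 3 or more lists at the start (Klf2, Cxcr4, Cd44 and Itga4). The search covered the 65 other listed genes with a known strand. The measure was the Euclidean distance over the 7 values of log2(1 + fold enrichment) at the start. The set of lists at Itga4 and Cxcr4 is shared by 4097 genes (23.4%). For Itga4 the closest gene was Itgb1, at 0.36, whose product pairs with that of Itga4 in another integrin. For Cxcr4 it was Ccl25, at 0.57, followed by S1pr4 at 0.79, and for Cd44 it was Itgav, at 1.37. Among these 65 genes Klf2 had no close match. The nearest was Sphk1 at 2.77, which had no p300 call at its start. The genes that share the exact set of lists of Klf2, such as Arhgap20, were not among the genes searched.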

How the data were processed

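Peak lists of 7 ChIPmentation libraries were used, and the 2 inputs were not analysed here. The submitters' processing notes name Bowtie2, SAMtools, MACS2 and deepTools and the build mm10 (GRCm38), with no versions or settings. Whether the inputs served as controls and whether libraries were pooled is not given in the sources used here. The fold enrichment is a linear ratio deposited by the authors. Peaks carry their p-value and q-value as −log10 values, as deposited, and the smallest −log10 q was 2.00 to 2.08 over the lists. A deposited whole-number score was not used. The files have no header, so columns were read from their layout and values.

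Genes came from RefSeq GRCm38.p6 and strands from its promoter table, which covered 17492 of 21887 protein-coding genes. For S1pr1 and Ccr7 the strand was added from general knowledge. The match of builds was checked: 43.4% of H3K4me3 summits lay within 1 kb of a gene start, and 2.75% when starts were shifted by 10000 bp. A gene was called when a peak overlapped the start window or the body by at least 1 bp, and its value is that of the strongest such peak. Percentiles are among gene starts called in that list. Exons and introns were not used here.

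The members and lists were chosen with earlier results of these data known. All 9 members were named. In each pathway list the genes with the 2 highest EZH2 and N-MYC values at the start were to be named, along with the gene closest to each member that had 3 or more lists. Other genes of these lists that the text names were chosen after their values were seen. Alternatives were a q-value of at most 1e-05, a fold enrichment of at least 4, a summit in the window, other window sizes and all promoter-table starts. No test was run, since each antibody had 1 library. The overlap step was tested on simulated data with 200 planted genes. Python 3.11.15, numpy 2.4.6 and pandas 2.3.3 were used.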

Additional observations from a re-analysis of the deposited data

How the results depend on the processing

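Of 88 alternative values for the 17 counts of genes, 84 stayed within 1.5 times the reported count. The exceptions concern single genes. When the summit and not the peak's edge had to lie within 1 kb of the start, SUZ12 was called at 0 genes, H3K27me3 at 0, and H3K4me3 with H3K27me3 at 0, since the Klf2 summits of SUZ12 and H3K27me3 lie 1239 and 1293 bp into the gene. Under the same summit rule Cxcr4 lost its H3K4me3 and p300 calls, whose summits lie 1341 and 1378 bp into the gene. That left H3K4me3 at 5 genes, p300 at 3 and active starts at 4, each within 1.5 times the reported count. With a start window of 0.5 kb N-MYC was called at 1 gene, Itga4, since the Cxcr4 peak begins 768 bp into the gene. Using every start of the promoter table raised H3K4me3 from 6 to 8 genes and active starts from 5 to 7, through Ccr4 and Itgb7, and N-MYC from 2 to 3, through Ccr4. The EZH2 count was 3 under every alternative tried. No paired analysis was possible because each antibody had 1 library. The number of reads per library is unknown, so the depth behind a missing call cannot be given.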

Other observations

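Distance to the nearest N-MYC summit varied widely among the 7 genes without N-MYC at the start. It was 8.1 kb for Ccr7, 8.6 kb for Ccr4 (inside the gene, by its promoter-table start), 12.4 kb for Ccr9 and 13.2 kb for Itgb7. It was 79.1 kb for Klf2, 100.8 kb for S1pr1 and 171.8 kb for Cd44. The median over 17276 gene starts was 30.3 kb. That median includes starts with an N-MYC peak, so it is not a matched reference for these 7 genes. The upstream N-MYC peaks of Ccr7 (5.49) and Ccr9 (4.16) each lay beside a p300 summit, 8.5 and 12.6 kb from the start.

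Cxcr4 had H3K27ac peaks on both sides beyond its gene. The strongest, of 9.63 and 3675 bp, lay 8.9 kb upstream, and one of 6.74 lay 7.5 kb from the start on the far side of the gene. No p300 or N-MYC peak lay in either within 10 kb of the gene. The upstream one runs past that limit, and the part beyond it was not searched. S1pr1 had 2 H3K27ac peaks beyond 1 kb from its start and within 10 kb of its ends. One, of 4.39 and 360 bp, had its summit 1341 bp into the gene, under the same H3K4me3 peak, and the other, of 3.88 and 543 bp, lay 10.3 kb from the start.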
